A study of Homo sapiens with 9 samples.

Results

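Transcripts of homologous recombination and of the Fanconi anaemia pathway were followed in the established human glioma line U87 across 3 transfected groups. Members were 38 genes named by symbol. Each was read from probe sets that the platform's probe table assigns to 1 gene symbol, keeping for each gene the one whose log2(signal + 1) was highest on average over the 9 arrays. Of the 38, 34 had such a probe set, out of 19775 genes named on the array, and all 34 were among the 12587 genes tested, those above their array's median on at least 3 arrays. BRCA2, RBBP8, FANCA and FANCD2 were not analysed here. Cells were given 50 nM of a microRNA duplex and harvested after 72 h, with 3 arrays for each group. The groups received miR-376a*A, the unedited form of the microRNA, miR-376a*G, its edited form, or a control miRNA, all with the same lipid reagent and with no other agent. The replicates are labelled biological, but the cultures they came from are not given, so p-values measure the spread between these arrays. The cells are 1 line, measured in bulk and at 1 time.

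Homologous recombination repairs a broken chromosome by copying the sister chromatid. Nucleases cut one strand back from the break, BRCA1 and its partners prepare the exposed strand for pairing with the sister, and the resulting joint molecules are then dissolved or cut. The Fanconi pathway opens a crosslink between the DNA strands: a core complex attaches ubiquitin to FANCD2 and FANCI, and recombination then mends the incised chromosome. Because a sister chromatid is needed, many of these genes are transcribed mainly in S and G2 phase. Others are transcribed at much the same level through the cell cycle. The 2 classes are called S-phase-linked and constitutive below and were assigned from textbook knowledge, with 16 and 18 measured members. The class of DNA2, XRCC2, RAD54B, EME1, FANCE, FANCG, FANCM, RMI1 and TOPBP1 was borderline.

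The microRNA under study is known today as the 5p arm of miR-376a, which has 2 human precursors on chromosome 14. Its mature sequences are shown as RefSeq gives them on GRCh38.p14, 5′ to 3′, because the 2 transfected forms differ within the seed, drawn in capitals at bases 2 to 8. The RefSeq entries carry the genomic, unedited letters. The labels do not spell out the duplexes, so which of these sequences the unedited duplex follows is not known here.
hsa-miR-376a-5p (chr14:101040788-101040809, plus strand): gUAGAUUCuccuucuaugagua
hsa-miR-376a-2-5p (chr14:101040080-101040100, plus strand): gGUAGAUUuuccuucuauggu
The seeds drawn here are not the same, being offset by 1 base.

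E2F factors are the main activators of genes transcribed at the start of S phase, so the promoters of the members were searched for their core sites. The spellings TTTCCCGC, TTTCGCGC, TTTGCCGC and TTTGGCGC were searched on both strands, in 300-base RefSeq promoters running from 250 bases before a start to 50 after it. Of the 34 measured members, 30 had a promoter entry, and 6 of these 30 (20.0%) held a match. A match was present in 3.31% of all 35116 promoters and in 3.99% of the 27305 genes they belong to. The matches were split evenly between the classes, with 3 of 13 S-phase-linked and 3 of 17 constitutive members. Below are 30 bases around each match on the gene's own strand, with the core site in capitals, and the position of the site's first base from the start. Positions after the start, that of EXO1 among them, count the start base itself.
EXO1 (chr1:241848197-241848226, plus strand, 5 bases after the start): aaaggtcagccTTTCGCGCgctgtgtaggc
FANCC (chr9:95317863-95317892, minus strand, at -172): ccggggcttccGCGCGAAAccgggaacact
FANCC (chr9:95317737-95317766, minus strand, at -46): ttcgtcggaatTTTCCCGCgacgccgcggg
MND1 (chr4:153344643-153344672, plus strand, at 6 or -34 from its annotated starts): cggcgtagtcgGCGCCAAAatcaaacgcgt
RMI1 (chr9:83980762-83980791, plus strand, at -32): ggcgcgagcgcGCGGCAAAtcgggcgggaa
TOPBP1 (chr3:133661930-133661959, minus strand, at -7): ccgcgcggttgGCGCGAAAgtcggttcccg
XRCC2 (chr7:152676102-152676131, minus strand, at 22): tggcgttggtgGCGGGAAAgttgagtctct
CCAAT was found in 14 of the 30 members and in 39.7% of all genes with a promoter, and TTTGAA, a core of the element that holds mitotic genes silent before G2, in 4 of the 30 and in 18.2%. These matches are descriptions of the letters and not evidence of binding.

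Median signal per array was 19.5 ± 1.55 in miR-376a*A cells, 23.3 ± 1.44 in miR-376a*G cells and 19.8 ± 1.98 in control cells (SD, n = 3 each). All 5 markers of the line were above the array median on every array. VIM lay between 2107 and 2975, CD44 between 1475 and 2193, SPARC between 1401 and 2278, and NES, the dimmest, between 32.4 and 61.6. FN1 averaged 1108 in miR-376a*G cells and 2780 in control cells, a difference of -1.32 (adjusted p = 3.7e-04 in limma), and its part in the results was not tested. The astrocyte markers GFAP, S100B and AQP4 lay under the array median on all 9. So did the leukocyte gene PTPRC, the neuronal gene RBFOX3 and the epithelial gene KRT18. The leukocyte gene CD3E and the epithelial gene EPCAM were above it on 2 arrays each, and the endothelial gene CDH5 on 1. PECAM1, also an endothelial gene, was above it on all 9, at 38.7 to 135. The neuronal genes SYT1 and SNAP25 were bright. SNAP25 had 254, 1656 and 1825 in miR-376a*A cells, 197, 192 and 179 in miR-376a*G cells, and 1498, 240 and 214 in control cells. Thus 2 arrays stood apart from their labelled groups. Pearson correlations were taken across the tested genes, which share their arrays and do not replicate each other. The array labelled miR-376a*A replicate 1 had a correlation of 0.987 to 0.990 with control replicates 2 and 3 and of 0.925 to 0.934 with the other miR-376a*A arrays. The array labelled control replicate 1 had 0.982 to 0.990 with miR-376a*A replicates 2 and 3 and 0.934 to 0.935 with the other controls. For 29 of the 34 members, miR-376a*A replicate 1 lay nearer to the mean of control replicates 2 and 3 than to that of its own group. For 23 of the 34, control replicate 1 lay nearer to miR-376a*A replicates 2 and 3. Results are therefore given with all 9 arrays and without these 2, and "the library labelled" is meant wherever either group is named.

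In cells given edited miR-376a*G the recombination and Fanconi transcripts were mostly higher than in control cells. In limma fits, 22 of the 34 measured members rose and 0 fell at an adjusted p under 0.05, where 18.0% of all tested genes rose and 15.4% fell, 33.4% in all. The median difference of the members was 0.88 on the log2(signal + 1) scale, against 0.12 for all tested genes, and differences on this scale understate the change of dim genes. In 27 members all 3 miR-376a*G arrays lay above all 3 controls, which held for 31.1% of tested genes. Of the 22, XRCC3, RAD54L and FANCB passed the filter on low signal through the miR-376a*G arrays alone, and FANCE through these and 1 control, so these 4 had to differ. Of the members above the median on all 9 arrays, 18 rose, beside 2063 of 10411 genes under the same filter. That filter left out RAD51B, XRCC3, RAD54L, FANCB, FANCE and FANCM. Signals are scaled to each array's total and come from whole cultures, so more cells in a phase and more RNA in each cell cannot be told apart. Without the 2 arrays that stood apart, 27 members rose and 2 fell, with 31.2% and 25.0% of tested genes doing so, 56.1% in all.

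**Figure D1:**
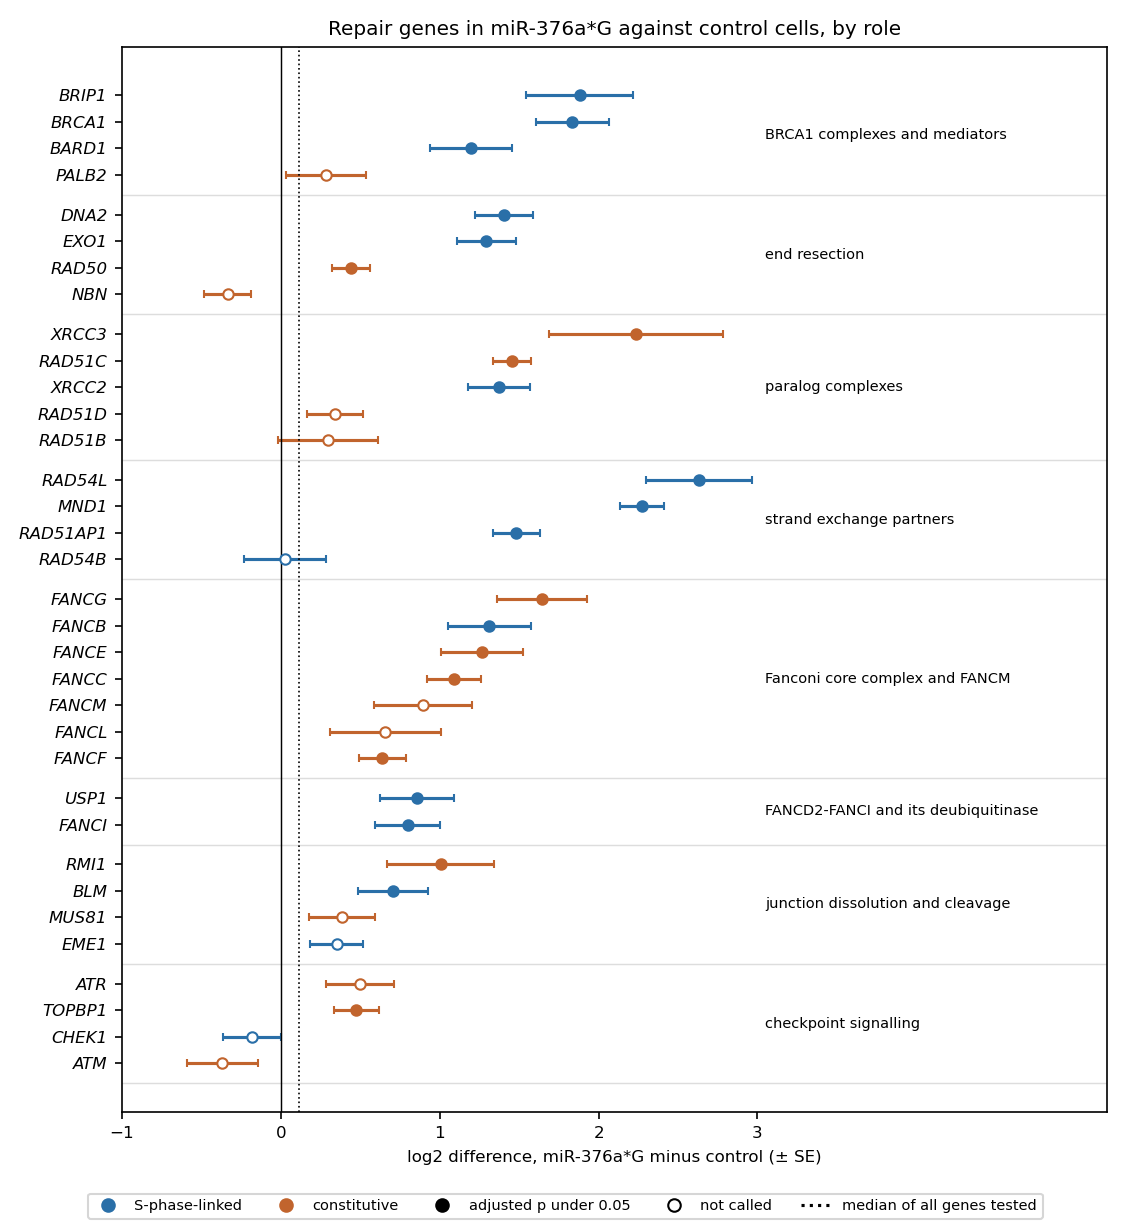
Difference between miR-376a*G and control cells for the 34 measured members, on the log2(signal + 1) scale with standard errors (n = 3 arrays each), grouped by role and coloured by class. Filled points had an adjusted p under 0.05 and the dotted line is the median of all tested genes, 0.12; 31 of the 34 points lie right of 0 and the 3 left of it, NBN, CHEK1 and ATM, are open.

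Of BRCA1 and its partners, 3 of the 4 measured rose in miR-376a*G cells, beside 18.0% of all tested genes. BRCA1, a ubiquitin ligase that directs repair to recombination, had signals of 39.8, 31.6 and 21.3 in miR-376a*A cells, 169.6, 151 and 192 in miR-376a*G cells, and 41.3, 54.9 and 45.7 in control cells. The miR-376a*G arrays did not overlap with any other array, and the difference from control was 1.83 (SE 0.23, adjusted p = 4.4e-04). Another BRCA1 probe set gave 1.38 (adjusted p = 1.1e-04). BRIP1, a helicase that binds BRCA1, had 66.0, 34.9 and 26.5 in miR-376a*A cells, 167, 193 and 154 in miR-376a*G cells, and 31.6, 59.1 and 50.9 in control cells. It rose by 1.88 (SE 0.34, adjusted p = 0.00277), again without overlap. BARD1, the obligate partner of BRCA1 in the ligase, had 103, 64.9 and 63.3 in miR-376a*A cells, 184, 193 and 188 in miR-376a*G cells, and 56.0, 103 and 94.5 in control cells. Its 3 miR-376a*G arrays lay close together above the rest, with a difference of 1.20 (SE 0.26, adjusted p = 0.00699). PALB2, which bridges BRCA1 to BRCA2, differed by 0.28 (adjusted p = 0.420) and was not called. For BRIP1 and BARD1 the miR-376a*A and control arrays with the outlying values were the 2 that stood apart, and without them the differences were 1.62 and 0.93.

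Of the end-resection genes, both S-phase-linked nucleases rose, beside 18.0% of all tested genes. DNA2, a nuclease and helicase of long-range resection, had 63.0, 81.4 and 75.1 in miR-376a*A cells, 176, 176 and 149.6 in miR-376a*G cells, and 79.3, 51.9 and 59.1 in control cells. EXO1, the exonuclease that works in parallel with it, had 40.3, 46.0 and 29.9 in miR-376a*A cells, 81.7, 69.9 and 84.3 in miR-376a*G cells, and 33.9, 30.1 and 30.3 in control cells. The differences between miR-376a*G and control were 1.4 (SE 0.18, adjusted p = 5.4e-04) for DNA2 and 1.29 (SE 0.19, adjusted p = 9.2e-04) for EXO1, with no overlap. The complex that first binds the break is represented by RAD50 and NBN. RAD50, its coiled-coil ATPase, had 238, 215 and 219.8 in miR-376a*A cells, 269, 286 and 248 in miR-376a*G cells, and 175, 209 and 208 in control cells. It rose by 0.44 (SE 0.12, adjusted p = 0.0204), a call that was lost without miR-376a*G replicate 1 or 2, where the highest adjusted p was 0.0802. NBN, the subunit that recruits ATM, was lower on all 3 miR-376a*G arrays, by -0.34 (adjusted p = 0.110). NBN was called lower without miR-376a*A replicate 1 (adjusted p = 0.0280) and, at -0.40 (adjusted p = 0.00202), without the 2 outlying arrays, and its 3 other tested probe sets gave 0.21 to 0.38 with no call.

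The paralog complexes, which assist strand exchange, separated into 3 that rose and 2 that were not called. Of all tested genes 18.0% rose. RAD51C, the member shared by both paralog complexes, had 177, 186 and 146 in miR-376a*A cells, 513, 558 and 524 in miR-376a*G cells, and 202, 186 and 192 in control cells. Its difference of 1.46 (SE 0.12, adjusted p = 4.9e-05) was the most precise of the group, and another probe set gave 2.12 (adjusted p = 0.00216). XRCC2, a subunit of the larger paralog complex, had 62.6, 60.9 and 45.7 in miR-376a*A cells, 144, 145 and 105 in miR-376a*G cells, and 52.7, 42.6 and 54.4 in control cells. It rose by 1.37 (SE 0.19, adjusted p = 8.2e-04). XRCC3, the partner of RAD51C, was dim, with 7.93, 1.95 and 1.19 in miR-376a*A cells, 36.4, 23.0 and 45.0 in miR-376a*G cells, and 8.03, 7.84 and 3.95 in control cells. Its difference was 2.24 (SE 0.55, adjusted p = 0.0130), and without miR-376a*G replicate 3 the adjusted p was 0.0568. XRCC3 passed the filter on low signal through the miR-376a*G arrays alone and so had to differ. RAD51D and RAD51B, further subunits of that larger complex, differed by 0.34 (adjusted p = 0.168) and 0.30 (adjusted p = 0.497), and another RAD51B probe set had the opposite sign, -0.82 (adjusted p = 0.0694).

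The partners that help pair and exchange strands held the member with the smallest p of all, MND1. This gene, known as a meiotic strand-exchange factor, had 61.9, 57.4 and 47.5 in miR-376a*A cells, 294, 308 and 312 in miR-376a*G cells, and 58.8, 68.8 and 59.7 in control cells. The difference between miR-376a*G and control was 2.27 (SE 0.14, adjusted p = 1.3e-05). RAD51AP1, which stimulates strand invasion, had 38.7, 38.9 and 29.8 in miR-376a*A cells, 109, 113 and 109 in miR-376a*G cells, and 37.9, 39.7 and 39.2 in control cells. It rose by 1.48 (SE 0.15, adjusted p = 1.3e-04), and the 3 arrays of the edited form were nearly alike. RAD54L, a translocase that drives strand exchange, had 14.6, 7.04 and 8.90 in miR-376a*A cells, 58.2, 48.1 and 70.5 in miR-376a*G cells, and 7.97, 12.4 and 6.28 in control cells. Its difference was 2.63 (SE 0.33, adjusted p = 4.5e-04), but RAD54L passed the filter on low signal through the miR-376a*G arrays alone and so had to differ. RAD54B, a related translocase placed in the S-phase-linked class, differed by 0.02 (SE 0.26, adjusted p = 0.949), and its sign turned with the arrays used, to -0.18 without the 2 that stood apart.

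Within the Fanconi core complex, the ubiquitin ligase of the pathway, all 7 measured genes had their 3 miR-376a*G arrays above the 3 controls. At the threshold 5 of them rose. Of all tested genes, 31.1% lay without overlap in this way and 18.0% rose. Among the 5, FANCB passed the filter on low signal through the miR-376a*G arrays alone and FANCE through these and 1 control, so both had to differ. FANCG, a scaffold subunit, had 195, 108 and 98.1 in miR-376a*A cells, 445, 483 and 479 in miR-376a*G cells, and 108, 193 and 160.3 in control cells. The difference was 1.64 (SE 0.28, adjusted p = 0.00221), or 1.41 without the 2 arrays that stood apart. FANCC, which binds FANCE and FANCF, had 34.1, 45.1 and 41.2 in miR-376a*A cells, 92.7, 82.9 and 87.7 in miR-376a*G cells, and 48.3, 35.8 and 39.1 in control cells. It rose by 1.09 (SE 0.17, adjusted p = 0.00137). FANCB, which is X-linked and belongs to the catalytic part of the complex, had 14.9, 15.4 and 8.38 in miR-376a*A cells, 43.5, 36.0 and 36.1 in miR-376a*G cells, and 13.7, 17.1 and 14.0 in control cells. It rose by 1.31 (SE 0.26, adjusted p = 0.00486). FANCE, which binds the substrate FANCD2, and FANCF, an adaptor subunit, rose by 1.26 (adjusted p = 0.00518) and 0.64 (adjusted p = 0.0103). FANCM, the translocase that brings the complex to chromatin, differed by 0.90 (adjusted p = 0.0511), just past the threshold. The adjusted p of FANCM was 0.0106 at its lowest when 1 array was left out, and the call appeared without miR-376a*A replicate 1 or 3. FANCL, the ligase subunit itself, differed by 0.66 (adjusted p = 0.181) and by 0.29 (adjusted p = 0.0230) without the 2 arrays that stood apart.

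The substrate FANCI and the enzyme that removes its ubiquitin mark both rose, beside 18.0% of all tested genes. USP1, that deubiquitinase, had 459.9, 254 and 306 in miR-376a*A cells, 607, 628 and 600.4 in miR-376a*G cells, and 255, 396 and 379.5 in control cells. FANCI had 209, 157 and 141 in miR-376a*A cells, 336, 304 and 320.3 in miR-376a*G cells, and 137, 213 and 211 in control cells. The differences between miR-376a*G and control were 0.86 (SE 0.23, adjusted p = 0.0197) for USP1 and 0.80 (SE 0.20, adjusted p = 0.0155) for FANCI. Both calls rested on the arrays of the edited form. The USP1 call was lost without any 1 of the miR-376a*G arrays (highest adjusted p 0.0634), and the FANCI call without replicate 1 or 3 of them (highest adjusted p 0.0576). With all arrays, another USP1 probe set gave 1.33 (adjusted p = 0.00320), and other FANCI probe sets gave 1.38 (adjusted p = 0.00406) and 1.08 (adjusted p = 0.0104).

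Of the junction-processing genes 2 of 4 rose, beside 18.0% of all tested genes. BLM, the helicase mutated in Bloom syndrome, had 117, 75.5 and 69.4 in miR-376a*A cells, 141, 143 and 149.6 in miR-376a*G cells, and 72.2, 87.5 and 109.6 in control cells, a difference of 0.70 (SE 0.22, adjusted p = 0.0365). RMI1, its partner in dissolving joint molecules, had 167, 78.5 and 93.3 in miR-376a*A cells, 201, 266 and 188 in miR-376a*G cells, and 69.2, 129 and 138 in control cells, a difference of 1.00 (SE 0.33, adjusted p = 0.0458). In both genes the edited form's arrays lay above all others, but the calls were close to the threshold. They were lost without any 1 miR-376a*G array or control replicate 1 or 2, and that of RMI1 also without miR-376a*A replicate 3, with adjusted p up to 0.105 for BLM and 0.144 for RMI1. EME1, the partner of the MUS81 nuclease, had 244, 246 and 247 in miR-376a*A cells, 347, 272 and 260.3 in miR-376a*G cells, and 285, 212 and 196 in control cells. These groups overlapped, with a difference of 0.35 (SE 0.17, adjusted p = 0.138), which was called without control replicate 1 (adjusted p = 0.0270). Another EME1 probe set gave 1.18 (adjusted p = 0.00122). MUS81, the nuclease itself, differed by 0.39 (adjusted p = 0.188).

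Of the checkpoint genes 1 of 4 was called, with a median difference of 0.15. Of all tested genes 18.0% were called higher and 33.4% in either direction, so this count does not set the checkpoint genes apart. TOPBP1, the activator of ATR, had 269, 215 and 207 in miR-376a*A cells, 336, 369.7 and 329.6 in miR-376a*G cells, and 216, 268 and 262 in control cells. It rose by 0.48 (SE 0.14, adjusted p = 0.0297), a call lost without any 1 miR-376a*G array or control replicate 1 or 3 (highest adjusted p 0.103). ATR, the kinase that answers stalled replication, had 229, 153 and 142 in miR-376a*A cells, 275, 297 and 257 in miR-376a*G cells, and 151, 217 and 225 in control cells. Its difference of 0.50 (SE 0.21, adjusted p = 0.104) was not called with all arrays and was called without miR-376a*A replicate 1 (adjusted p = 0.0386), and another probe set gave 1.01 (adjusted p = 0.0356). ATM, the kinase that answers broken DNA ends, had 162, 134 and 102 in miR-376a*A cells, 126, 123 and 124 in miR-376a*G cells, and 118, 175 and 201 in control cells. The groups overlapped and the difference was -0.37 (SE 0.22, adjusted p = 0.237). Without control replicate 1 it was -0.59 (adjusted p = 0.0435), and the mean over the gene's probe sets gave 0.15. CHEK1, the effector kinase below ATR, is given here after its values were seen, as an S-phase-linked gene that was not higher. It had 87.1, 111 and 114 in miR-376a*A cells, 82.3, 73.5 and 74.2 in miR-376a*G cells, and 110.0, 83.5 and 72.0 in control cells. Its difference was -0.18 (SE 0.18, adjusted p = 0.466), and its other tested probe sets gave -0.79 (adjusted p = 0.00404) and 0.03 (adjusted p = 0.942).

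**Figure D2:**
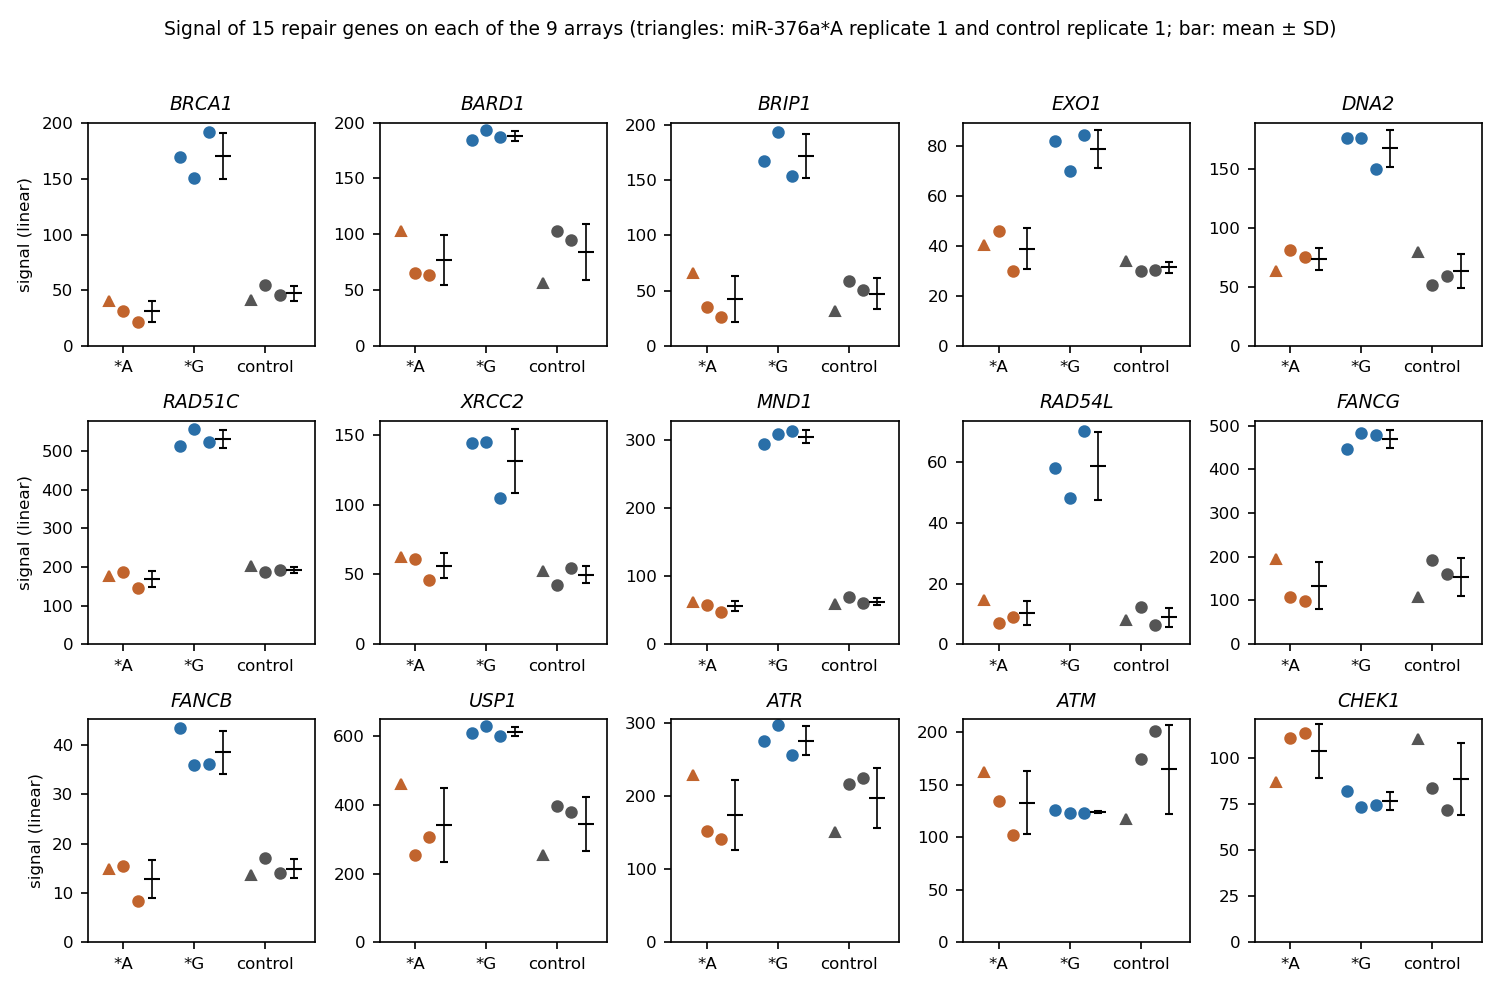
Signal (linear scale, from 0) of 15 members on each of the 9 arrays, with miR-376a*A (written *A) left, miR-376a*G (*G) in the middle and control right. Bars give the mean ± SD of 3 arrays and triangles mark the 2 arrays that stood apart; MND1 at 294 to 312 in miR-376a*G cells lies above every other array (at most 68.8), whereas ATM and CHEK1 overlap between miR-376a*G and control.

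S-phase-linked members had a larger median difference between miR-376a*G and control than constitutive ones, though the classes overlapped. Of the S-phase-linked members 13 of 16 rose, with a median of 1.30 and a range of -0.18 to 2.63. Of the constitutive members 9 of 18 rose, with a median of 0.57 and a range of -0.37 to 2.24. RAD54L and XRCC3 set the upper ends of these ranges. Both, with FANCB and FANCE, are counted as rising but had to differ because of the filter on low signal. For members above the median on all 9 arrays the S-phase-linked median was 1.25 and the constitutive median 0.49. Among constitutive members above the median on all 9 arrays, FANCG and RAD51C had the largest differences, at 1.64 and 1.46, above the S-phase-linked median. EME1, RAD54B and CHEK1 were the S-phase-linked members that were not called. The S-phase-linked median stayed above the constitutive one in all 23 alternative settings, by 0.50 to 0.95, but the classes were assigned with these results known and the gap was not tested. All 6 members with an E2F core site rose, with a median of 1.19, as did 14 of the 24 without one, with a median of 0.78. Of all tested genes 18.0% rose, and the share among all genes with a site was not counted. Of the 6, RMI1 and TOPBP1 lost the call in 6 and 5 of 9 fits with 1 array left out. FANCC lost it with the mean over probe sets. The part of the site was not tested. Reference genes of the cell cycle moved in the same direction. Of 15 S-phase genes 14 rose, with a median of 1.46, among them RRM2 by 1.49 (adjusted p = 1.1e-05) and GINS2 by 2.33 (adjusted p = 1.3e-05). All 14 mitotic genes rose, with a median of 1.81, among them PLK1 by 2.59 (adjusted p = 1.0e-05) and CCNB2 by 2.01 (adjusted p = 1.2e-05). Their part in the members' differences was not tested.

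**Figure D3:**
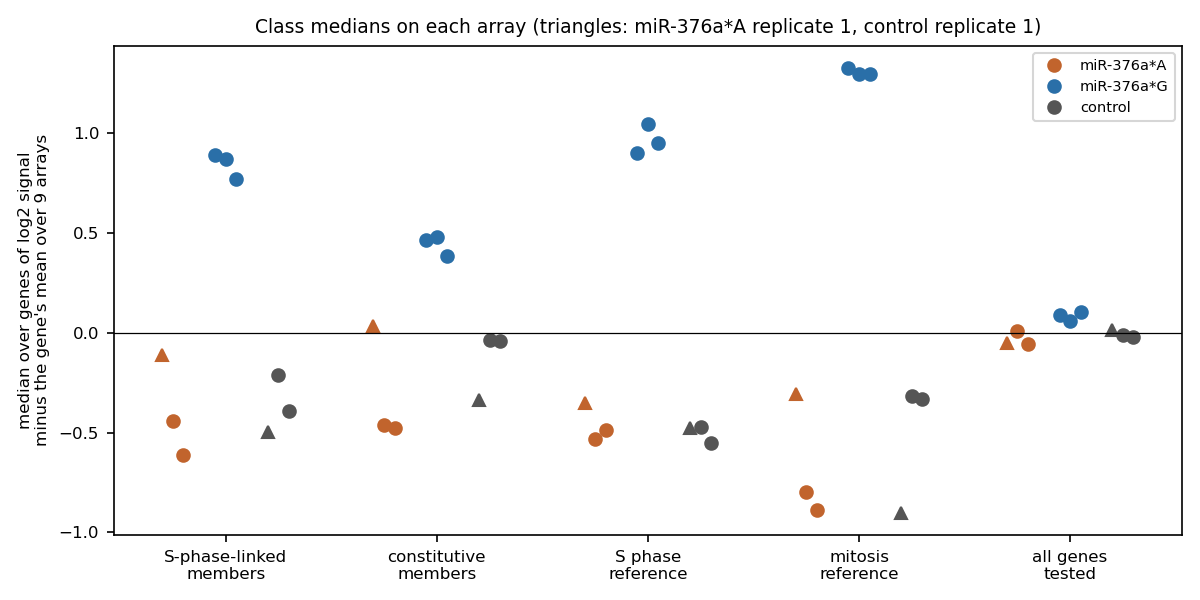
Median over genes of log2 signal after each gene was centred on its mean over the 9 arrays, for both classes of members, 2 reference lists and all tested genes. Each point is 1 array and triangles mark the 2 that stood apart; the miR-376a*G arrays sit at 0.77 to 0.89 for S-phase-linked members and 0.38 to 0.48 for constitutive members, above all miR-376a*A and control arrays.

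Unedited miR-376a*A gave no call against control, and the answer turned on the 2 arrays that stood apart. With all 9 arrays 0 of the 34 members were called in limma, as were 0 of 12587 genes (0% of those tested). At an unadjusted p under 0.05 there were 1 member and 463 genes. That member was BRCA1, lower on all 3 miR-376a*A arrays by -0.63 (SE 0.23, adjusted p = 0.886). Another BRCA1 probe set gave -0.034 (adjusted p = 0.962), so the lower level was seen on the probe set used and not on that one. The median difference of the members was -0.13. In 2 members all miR-376a*A arrays lay below all controls and in 1 above them, as in 3.58% and 2.57% of tested genes. Without those 2 arrays, 19 members fell and 2 rose, where 22.9% of tested genes fell and 19.0% rose (41.9% in all), with a median of -0.42 against 0.00 for all tested genes. The 2 that rose were CHEK1 by 0.53 (adjusted p = 0.0101) and DNA2 by 0.49 (adjusted p = 0.0159). Among those that fell were FANCL by -1.05 (adjusted p = 2.0e-05), BRCA1 by -0.92 (adjusted p = 0.00406), BRIP1 by -0.83 (adjusted p = 0.00328) and FANCG by -0.77 (adjusted p = 3.3e-04). XRCC3 is counted among the 19, but its signals were under 10 and under the array median in both miR-376a*A and control cells, so its difference is not given. On these arrays 7 of 16 S-phase-linked members fell, with a median of -0.35, and 12 of 18 constitutive members, with a median of -0.57. The S-phase reference genes had a median of 0.00 in the same fit, with 4 rising and 2 falling, and 8 of the 14 mitotic genes fell. These counts rest on 2 arrays in each of the miR-376a*A and control groups and on leaving out arrays because of their values, so they are a description of the remaining 7.

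**Figure D4:**
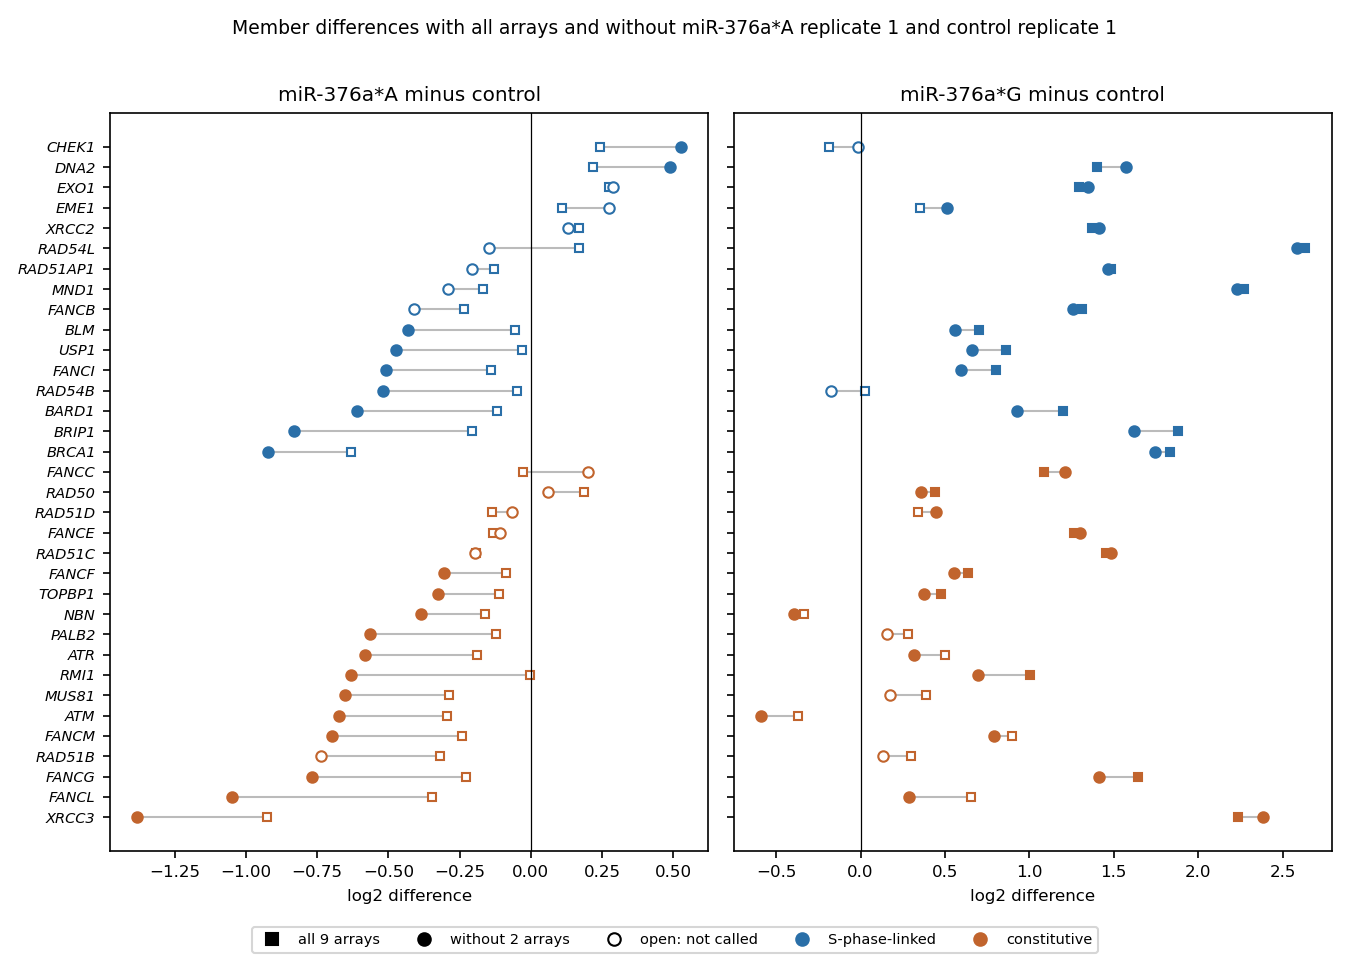
Differences on the log2(signal + 1) scale of the 34 measured members between miR-376a*A and control (left) and between miR-376a*G and control (right), from all 9 arrays (squares) and without the 2 arrays that stood apart (circles). Filled symbols had an adjusted p under 0.05; on the left 0 squares and 21 circles are filled, on the right 22 squares and 29 circles.

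Set directly against the edited form, miR-376a*A cells had lower levels of most members. In limma 25 of 34 fell and 0 rose, where 21.8% of tested genes fell and 16.4% rose (38.2% in all), and the median was -1.0 against -0.14 for all tested genes. This comparison shares the miR-376a*G arrays with the one above, so both draw on the same 3 measurements of the edited form. The largest differences between the unedited and edited forms were -3.16 (SE 0.55, adjusted p = 0.00214) for XRCC3, -2.47 (SE 0.23, adjusted p = 8.7e-05) for BRCA1, -2.46 (adjusted p = 5.6e-04) for RAD54L and -2.44 (adjusted p = 8.7e-06) for MND1. Of these, XRCC3 and RAD54L were above the array median on the miR-376a*G arrays alone, so they had to be lower in miR-376a*A cells and their exact differences and ranks are uncertain. Another BRCA1 probe set gave -1.42 (adjusted p = 9.3e-05), so the size and rank of BRCA1 depend on the probe set. Among members above the median on all 9 arrays, 20 fell, beside 2463 of 10411 genes under the same filter. RAD51B, XRCC3, RAD54L, FANCB, FANCE and FANCM did not pass that filter. In 28 members all miR-376a*A arrays lay below all miR-376a*G arrays, as in 31.8% of tested genes, and in 1 above them, as in 21.8%. All 7 measured genes of the core complex and FANCM group fell, between -0.73 for FANCF and -1.87 for FANCG. Among them FANCB and FANCE lay under the array median on every miR-376a*A array and above it on every miR-376a*G array. They passed the filter through the latter, so they had to be lower. Of the S-phase-linked members 13 of 16 fell, with a median of -1.19, and of the constitutive members 12 of 18, with a median of -0.71. Members called here but not between miR-376a*G and control were FANCL, FANCM, MUS81 and ATR, at -1.0 (adjusted p = 0.0493), -1.14 (adjusted p = 0.0177), -0.67 (adjusted p = 0.0319) and -0.69 (adjusted p = 0.0318). RAD50, with -0.25 (adjusted p = 0.126), was the member called between miR-376a*G and control but not here. The calls of 7 members were lost without miR-376a*A replicate 2 or 3 or miR-376a*G replicate 2, with adjusted p up to 0.112 for ATR, 0.0883 for BLM, 0.110 for MUS81, 0.129 for RMI1, 0.163 for FANCL, 0.0658 for FANCM and 0.0541 for USP1. All of these but USP1 were also lost without miR-376a*G replicate 3, all but USP1 and FANCM without miR-376a*G replicate 1, and FANCL and RMI1 without control replicate 2 (FANCL also without control replicate 3). Conversely, PALB2 and RAD51B were called lower without miR-376a*A replicate 1 (adjusted p = 0.00709 and 0.0486), and RAD51D without control replicate 1 or 3 (lowest adjusted p 0.0315). CHEK1, NBN and ATM had positive differences on the probe sets used, none of them called. CHEK1 was higher on all 3 miR-376a*A arrays than on any miR-376a*G array, by 0.43 (SE 0.18, adjusted p = 0.0955), and was called without either of the 2 arrays that stood apart (lowest adjusted p 0.0432) and without both, at 0.55 (adjusted p = 0.00301). NBN differed by 0.17 (adjusted p = 0.375), ATM by 0.07 (adjusted p = 0.821) and RAD54B by -0.07 (adjusted p = 0.842). The other tested probe sets of NBN gave -0.43 to -0.15 and those of ATM -0.52 to -0.065, with no call. Those of CHEK1 gave 0.85 (adjusted p = 0.00262) and 0.19 (adjusted p = 0.570). Without the 2 arrays 30 members fell and 1, CHEK1, rose, with 34.0% and 25.7% of tested genes doing so, 59.6% in all.

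Other genes of the pathway came from a wider list of recombination and crosslink repair factors. Of 52 tested, 22 were called higher and 1 lower in miR-376a*G than in control cells, with a median of 0.41. Of all tested genes 18.0% were called higher and 15.4% lower. The 4 with the smallest p were RMI2, a subunit of the BLM dissolution complex, by 1.41 (adjusted p = 3.7e-05), PARPBP, an inhibitor of recombination, by 1.76 (adjusted p = 6.1e-05), PSMC3IP, the partner of MND1, by 1.26 (adjusted p = 1.1e-04), and MDC1, a scaffold at broken DNA, by 1.21 (adjusted p = 1.2e-04). The gene that fell was BRCC3, a deubiquitinase of the BRCA1-A complex, by -0.34 (adjusted p = 0.0338), named after its values were seen. Against miR-376a*G, 25 of the 52 fell in miR-376a*A cells, beside 21.8% of all tested genes. End joining, which repairs breaks without a template, had 11 tested genes. Of these 5 rose between miR-376a*G and control, beside 18.0% of all tested genes, with a median of 0.50. Its 4 smallest p belonged to XRCC1, a scaffold of single-strand repair, by 0.98 (adjusted p = 2.4e-04), PARP1, a sensor of broken DNA, by 1.27 (adjusted p = 3.8e-04), APTX, which cleans broken ends, by 0.50 (adjusted p = 0.00519), and PAXX, a core end-joining factor, by 1.06 (adjusted p = 0.00952). PRKDC also rose, by 0.90 (adjusted p = 0.0232), while XRCC4, XRCC5, XRCC6, LIG4, LIG3 and DCLRE1C were not called. Between miR-376a*A and control 0 genes of either list were called by limma, and 0 had an unadjusted p under 0.05. Without the 2 arrays that stood apart, 17 of the 52 fell and 2 rose, and 6 of the 11 end-joining genes fell. In that fit 22.9% of all tested genes fell and 19.0% rose.

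Probe sets of a gene did not always give the same answer. Of the 16 members with at least 2 tested probe sets, all probe sets had the same sign in 11 between miR-376a*G and control and in 12 between the unedited and edited forms. In none of the 16 were probe sets called in opposite directions. Between miR-376a*G and control the 5 whose probe sets differed in sign were NBN, RAD51B, ATM and CHEK1, which were not called above, and RAD50, which was. The other probe sets of RAD50 gave 0.29 and -0.020, with no call, and its mean over probe sets was 0.24 (adjusted p = 0.226). The calls of FANCC and FANCF were also lost with the mean over probe sets.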

How the data were processed

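Affymetrix human arrays of 9 RNA samples were analysed. Per the labels' protocols, total RNA was extracted with Trizol, cleaned on a column, amplified and labelled with biotin. The authors deposited 1 linear intensity per probe set and array. The submitters' processing notes name GCOS 1.4.0.036. For probe summary and genome build, the method was not given in the sources used here. Values had been scaled, as their 2% trimmed means differed little between arrays (99.99 on each), so differences are relative to the rest of the array. The number of arrays limits the precision.

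Values were tested as log2(signal + 1) with limma 3.58.1 in R 4.3.3, fitted to all 12587 tested genes and 9 arrays by group without covariates, and moderated by eBayes with a trend on intensity. Tests were two-sided, with Benjamini-Hochberg adjustment over all tested genes and a threshold of 0.05. With 3 arrays a group, the smallest p of an exact permutation test is 0.1. Steps were tested on simulated data. Members, classes and lists were chosen with earlier results of these data known. Arrays were grouped by their labels.

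All members were accounted for, with signals on 9 arrays for the 3 of each role with the smallest p between miR-376a*G and control and for ATM and ATR. From the wider repair and end-joining lists the 4 genes with the smallest p were named, with BRCC3 and PRKDC added, and from each cell cycle list the first 2. POLL and POLM were below the filter on low signal. CENPS, ATRIP and NHEJ1 were not analysed here. Promoters and microRNAs came from RefSeq tables of GRCh38.p14. Alternatives covered the pseudocount, filter, scaling, probe sets, array weights, replicate block and arrays left out.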

Additional observations from a re-analysis of the deposited data

How the results depend on the processing

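The number of members that rose between miR-376a*G and control was 22, and 16 to 24 with 1 array left out. The number that fell, 0 with all arrays, was 2 with limma array weights, 2 without both arrays that stood apart, 1 with only the 6 arrays compared, and 0 to 1 with 1 array left out. The S-phase-linked median of 1.30 was 1.03 with a pseudocount of 16, 1.07 with arrays centred on their medians, 1.70 scaled to the hybridisation controls and 1.59 scaled to the poly-A controls. The constitutive median of 0.57 was 0.44 without borderline members, 0.34 with median-centred arrays, 0.97 and 0.86 on the hybridisation and poly-A controls, 0.35 with array weights, 0.41 without both arrays, and 0.41 to 0.64 with 1 array left out. For the unedited form against control, array weights and leaving out both arrays each gave 2 members higher and 19 lower, against 0 and 0. The S-phase-linked median of -0.05 was then -0.32 on the hybridisation controls, -0.36 with array weights, -0.35 without both arrays and -0.26 to 0.068 with 1 array left out, and the constitutive median of -0.18 was -0.45, -0.45 and -0.57. For the unedited against the edited form, 1 member was higher with median-centred arrays, with array weights and without both arrays (0 to 1 with 1 array left out), and 15 were lower with median-centred arrays, against 25. The S-phase-linked median of -1.19 was -1.43 without borderline members, -0.97 with a pseudocount of 16, -0.95 with median-centred arrays and -1.86 on the hybridisation controls, and the constitutive median of -0.71 was -0.46, -1.38 on the hybridisation controls and -0.96 with array weights. Scaling moved every gene: the median of all tested genes between miR-376a*G and control was 0.12 as reported, -0.12 with median-centred arrays, 0.51 on the hybridisation controls and 0.40 on the poly-A controls, and 53.9%, 29.1%, 85.5% and 80% of calls were higher. Between the unedited and edited forms these medians were -0.14, 0.11, -0.81 and -0.33, and 43%, 70.1%, 7.62% and 27% of calls were higher.

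Sign changes were seen in differences that were not called with all arrays. Between miR-376a*G and control these were NBN (0.064 on the hybridisation controls, 0.35 as the mean over probe sets), RAD51B (-0.29 as that mean), ATM (0.031 on the hybridisation controls, 0.15 as that mean), CHEK1 (0.21 on the hybridisation and 0.10 on the poly-A controls) and RAD54B (-0.018 with quantile normalization, -0.21 median-centred, -0.17 with array weights, -0.18 without both arrays, -0.18 to 0.13 with 1 array left out). Between miR-376a*A and control DNA2 was -0.052 and CHEK1 -0.028 on the hybridisation controls. Between the unedited and edited forms, NBN was -0.50, -0.0099 and -0.49 on the hybridisation controls, on the poly-A controls and as the mean over probe sets. ATM was -0.60, -0.11 and -0.24 on these, -0.16 with array weights, -0.083 without both arrays and -0.083 to 0.25 with 1 array left out. RAD54B was 0.0077 with quantile normalization, 0.17 median-centred and -0.34 to 0.095 with 1 array left out, EME1 was 0.0063 median-centred and CHEK1 -0.24 on the hybridisation controls. The cause was not tested.

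Of the 22 members that rose between miR-376a*G and control, 15 kept the call with any 1 array left out. Under every alternative 10 were tested and kept it, and 4 were not tested under the stricter filter on dim genes. Of the 25 that fell between the unedited and edited forms, 18 kept the call with any 1 array left out, 11 were tested and kept it under every alternative, and 5 were not tested under the stricter filter. Correlations between the deviations of same-numbered replicates were 0.0090, -0.0069 and -0.167 between miR-376a*G and control. Between miR-376a*A and control they were -0.88, -0.61 and -0.56. These negative values cannot show whether the numbers pair the arrays, because replicate 1 of each group resembled the other group. Between miR-376a*G and control no clear shared deviation was seen, but control replicate 1 enters there too. Whether the numbers pair the arrays was therefore not decided. With a replicate block 16 members rose between miR-376a*G and control, 0 were called between miR-376a*A and control, and 18 fell between the unedited and edited forms. Dim members such as XRCC3 and RAD54L are limited by signal over background.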
